A study of Mus with 8 samples.

Results

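The members described here are 2680 C/EBPβ regions. Each had a called peak 4 h after adipogenic induction in both control 3T3-L1 cells (C) and 3T3-L1 cells with lowered Prep1 (P). At day −2 no peak was called there in either, and at 4 h the fold enrichment was at least 2 times higher in P cells. They were found by merging the peaks of 4 lists wherever they overlapped by 1 bp or more, which gave 28658 regions. Of these, 11532 had a peak in both 4 h lists, and 9787 of them had no peak in either day −2 list and are called shared induced regions here. The 2680 members are the 27.4% of shared induced regions (95% exact binomial interval 26.5 to 28.3) in which the highest fold enrichment of the P list was at least 2 times that of the C list. The 4 h fold enrichment thus chose the members, and it is given below as a description without a test.

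3T3-L1 is a mouse preadipocyte line that becomes fat cells when hormones are added. C cells had received a lentivirus with a scrambled hairpin and P cells one with a hairpin against Prep1, and both were kept as puromycin-selected populations. Cells were sampled ahead of induction, at day −2, and at 4 h after dexamethasone, isobutylmethylxanthine and insulin had been added, and their chromatin was precipitated with the C/EBPβ antibody C19. Each of the 4 conditions had 1 ChIP library and 1 input library, so the spread between cultures is unknown, no test between C and P cells was possible, and every interval covers counting error only. P cells carried shRNA1 against Prep1, so the P libraries stand for a single hairpin, and peak names inside the 4 h lists carry an hour tag of 5 where the labels say 4 h.

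C/EBPβ is a basic leucine zipper transcription factor that is among the first to bind chromatin once preadipocytes are induced, often at enhancers that other early factors share. It activates the genes of later adipogenic regulators, such as Pparg and Cebpa. Prep1 is a homeodomain protein of the TALE class that binds DNA with Pbx partners.

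The libraries were nearly equal in depth, at 7.84 M reads (C) and 7.82 M reads (P) at 4 h, as implied by the background of the peak lists. The P list at 4 h was the longer, with 26713 peaks against 13525. The narrowest peak was 164 bp wide in the C list against 159 bp in the P list, and this width was taken as the fragment length.

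Members had a median fold enrichment of 7.69 in C cells (range 3.01 to 29.1) and of 20.8 in P cells (7.56 to 70.6). Fold enrichment is the number of ChIP fragments covering the summit over the local input background, with 1 added to each. The median P/C ratio was 2.54, or 1.35 on the log2 scale, with quartiles of 2.23 and 3.06 and a maximum of 9.69. Many members lay near the limit of the rule, with 1275 of them (47.6%) under a ratio of 2.5. A ratio of at least 3 was reached by 729 members (27.2%), of at least 4 by 207 and of at least 5 by 54. The P to C excess was also general, since the median log2 ratio was 0.60 over all shared induced regions and 0.62 over all regions shared at 4 h. The members are the upper end of that one distribution, with no gap at the limit.

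**Figure D1:**
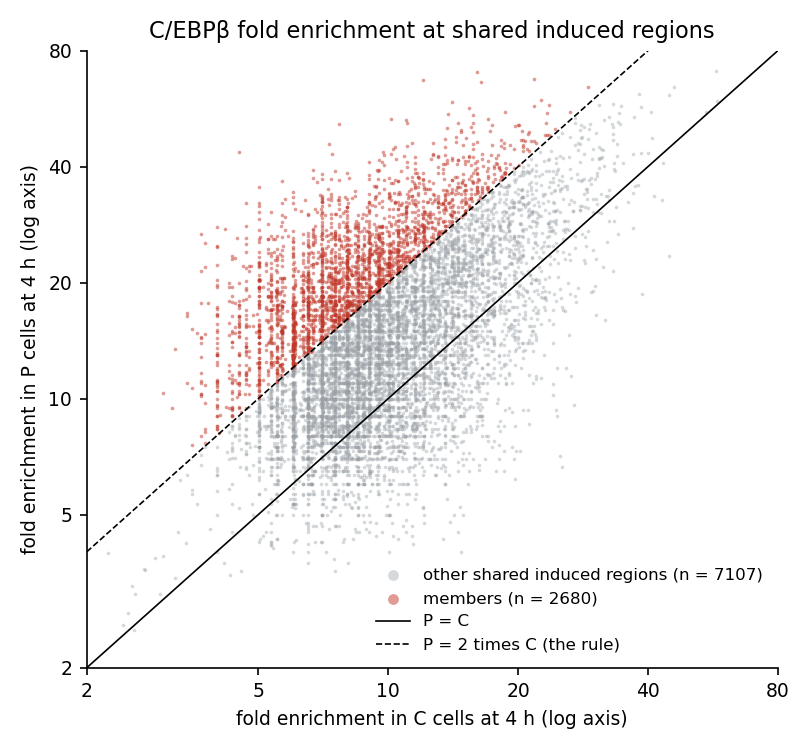
Fold enrichment in C cells (horizontal) and P cells (vertical) at 4 h, both on log axes, with 1 point per shared induced region. Members lie on or above the dashed line, where P is 2 times C, and run on without a gap from the other regions below it; the solid line marks equal values.

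The limit itself separated regions of like value. The member just inside it, chr10:96559437-96559732, had a fold enrichment of 5.99 in C cells and 11.98 in P cells. The next members inward, chr15:64006204-64006438 and chr8:129361159-129361429, had P/C ratios of 2.0003 and 2.003. The regions just outside were chr3:89708998-89709240, chr16:57634888-57635537 and chr1:183952012-183952674, with ratios of 1.9996, 1.9993 and 1.9989. The first of them had 8.24 in C cells against 16.5 in P cells, which made it stronger in both cell types than the member on the other side of the limit.

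Regions that were already bound before induction were compared in the same way, since the rule did not use them. There were 1650 day −2 sites of P cells and 837 of C cells. Most regions of this group thus had a day −2 peak in P cells alone, so the group was picked mainly by P calls. Of the 1745 regions shared at 4 h that had a day −2 peak in C or P cells, 519 (29.7%, 27.6 to 31.9) had at least 2 times the fold enrichment in P cells. This is close to the share among shared induced regions. The intervals of 26.5 to 28.3 and 27.6 to 31.9 overlap, which does not show that the shares are equal. Over all regions shared at 4 h the share was 27.7%. The median log2 ratio was 0.68 (0.64 to 0.71) where a day −2 peak was present and 0.60 (0.58 to 0.62) where none was. These intervals did not overlap. A ratio at least 2 times in favour of C cells was found in 0.94% of shared induced regions, 0.917% of those with a day −2 peak and 0.937% of all. The first of these shares, 92 of 9787 regions, depended on the measure, with 22 regions by ChIP fragments and 12 of 6454 where the input was under 3 times the genome-wide level in both cell types. By ChIP fragments the medians kept their order, at 0.73 (0.70 to 0.75) with a day −2 peak and 0.69 (0.68 to 0.71) without one. The shares past 2-fold ran the other way by fragments. A fragment ratio of at least 2 was found in 26.5% (24.4 to 28.6) of regions with a day −2 peak. It was found in 29.98% (29.1 to 30.9) of shared induced regions, with intervals that did not overlap. Fold enrichment thus set no order between the shares of these groups, while fragments gave shared induced regions the larger share. The groups differed in counts, however. The median number of fragments was 17 in C cells and 29 in P cells in shared induced regions. With a day −2 peak it was 32 and 54. Fragment ratios of shared induced regions thus carried a larger counting error, and its part in their larger share was not tested.

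**Figure D2:**
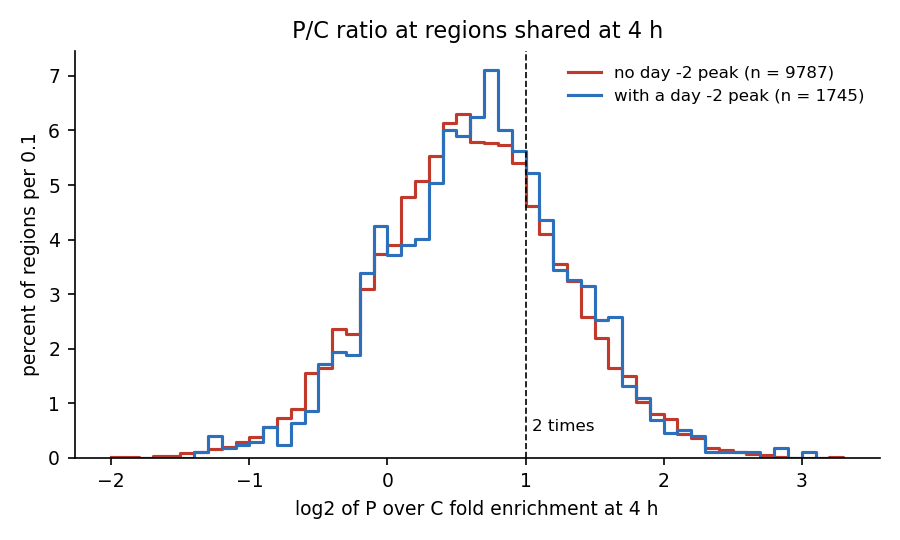
Log2 of the P over C fold enrichment at 4 h (horizontal) and the percent of regions in each step of 0.1 (vertical), for shared regions without a day −2 peak (red) and with one (blue). Both curves peak between 0 and 1 and run past the dashed 2-fold line, with 27.4% and 29.7% of regions beyond it.

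The strongest members in P cells were then described singly, in mm9 coordinates. The highest, chr6:17228322-17228788, had a fold enrichment of 16.1 in C cells and 70.6 in P cells. Behind these values stood 47 ChIP fragments in C cells and 117 in P cells, a fragment ratio of 2.49 (1.76 to 3.57). The input background there stood at 4.18 times the genome-wide level in the C library against 1.45 times in the P library, so its P/C ratio of 4.402 held both a higher ChIP term and a lower input term. The region on chromosome 16, chr16:94529209-94529990, had 12.04 in C cells and 67.1 in P cells, with 35 and 109 fragments. Its fragment ratio of 3.11 (2.11 to 4.70) was the highest among the 10 members strongest in P cells, and its P peak spanned 782 bp against 304 bp for the C peak. The member chr15:58586595-58587183 had 21.7 in C cells and 67.4 in P cells, with 64 and 134 fragments. At chr7:96848102-96848765 the values were 16.4 and 66.3, with 48 and 97 fragments. In both, the fragments differed by close to 2 times, at 2.09 and 2.02, while the fold enrichment differed by 3.10 and 4.04 times.

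The other members of the 10 ranged from level to very uneven input. At chr19:47412208-47412543 the input was nearly level, at 2.09 times the genome-wide value in the C library against 2.00 times in the P library. This member had the highest C value of all, 29.1, against 64.4 in P cells, and its fragment ratio of 2.16 (1.56 to 3.01) was close to its fold ratio of 2.22. At chr13:5545843-5546354 the fold enrichment was 23.6 in C cells and 57.9 in P cells, with 46 and 103 fragments. At chr16:45030876-45031440 it was 22.6 and 59.5, with 44 and 86 fragments. The lowest fragment ratio among the 10 was at chr2:71915937-71916530, with 64 fragments in C cells and 96 in P cells, a ratio of 1.5 (1.08 to 2.09) beside a fold ratio of 2.65. The remaining members of the 10 were chr10:22891300-22891798, with fold enrichments of 14.04 and 58.8 and the most uneven input of the 10, at 4.18 times the genome-wide level in the C library against 1.00 times in the P library, and chr3:27835964-27836782, with 15.4 and 56.7. In the latter the summits of the C and P peaks lay 381 bp apart inside a region of 819 bp, so the strongest point was not the same in both cell types. The fragment ratio had an interval above 1 at each of the 10. Choosing them by P/C ratio and P fold enrichment largely fixed this, so it is a description only.

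The members with the largest P/C ratio had weak C peaks on a raised C input. The largest, chr13:104188089-104188442, had a fold enrichment of 4.52 in C cells and 43.8 in P cells, a ratio of 9.69. Its fragments numbered 17 in C cells and 63 in P cells, a ratio of 3.71 (2.14 to 6.76), and its input stood at 6.27 times the genome-wide level in the C library against 1.00 times in the P library. The next, chr12:80447139-80447577, had 3.68 and 26.7, with 10 and 41 fragments. Its C peak had a −log10 p of 5.10, just over the threshold of 5 that the peak caller applied. The others were chr4:102219877-102220259 with 5.02 and 35.5, chr13:94928650-94929001 with 4.01 and 27.9, and chr13:114780979-114781297 with 4.68 and 32.3. The C input of the 5 members lay between 4.18 and 6.27 times the genome-wide level, and their P input between 1.00 and 2.42 times. Their fragment ratios, 2.74 to 4.38, were well below their fold ratios of 6.89 to 9.69.

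**Figure D3:**
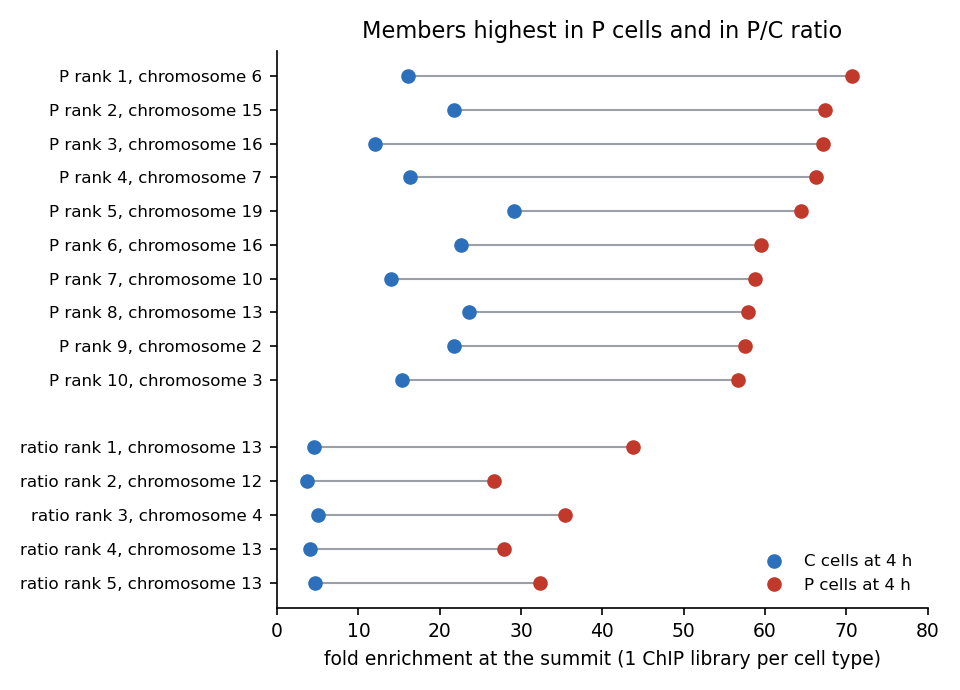
Fold enrichment at 4 h (horizontal) in C cells (blue) and P cells (red), 1 ChIP library each, of the 10 members highest in P cells and the 5 members with the largest P/C ratio (vertical, by rank and chromosome). The C values run from 3.68 to 29.1 and the P values from 26.7 to 70.6, and the 5 with the largest ratio have the lowest C values.

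Of the 5 members strongest in C cells, chr13:5545843-5546354, described above, had a P/C ratio of 2.46, and the other 4 had ratios of 2.05 to 2.22. After the region on chromosome 19 came chrX:165871815-165872196, with 26.4 in C cells and 55.4 in P cells, from 38 and 80 fragments. The input was at the genome background in both cell types there, so the fragment ratio of 2.11 and the fold ratio of 2.096 were nearly equal. The same held for chr13:103642890-103643346, with 24.4 and 50.03 from 35 and 73 fragments. At chr9:102638301-102638730, with 23.5 and 48.2, the P input was the higher and the fragment ratio of 2.46 (1.698 to 3.63) exceeded the fold ratio of 2.05.

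Because fold enrichment joins a ChIP and an input term, both were followed over the members. The median number of fragments at the summit was 16 in C cells (range 7 to 69) and 38 in P cells (13 to 158). The median fragment ratio was 2.26, or 1.18 on the log2 scale, against 1.35 for fold enrichment. More fragments were counted in P cells in 2667 of the 2680 members, and the other 13 had as many or fewer. The input background moved the other way, since its log2 P/C value had a median of −0.49 in members and 0.19 in the other 7107 shared induced regions. It was lower in P cells in 72.3% of members and in 32.4% of the others. Since a low P input and a high C input both raise the ratio on which members were selected, these input differences are part of the selection.

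The input term rested on few reads. A background of at least 1.9 expected fragments, about what 2 input fragments at the site give, was present in C cells at 32.2% of members and 8.58% of the other shared induced regions. In P cells it was present at 4.93% of members and 24.0% of the others. Of the members, 1856 (69.3%, 67.5 to 71.0) also had at least 2 times the fragments in P cells. These had a median background of 1.00 expected fragments in C cells and 0.92 in P cells. The other 824 members had a median fragment ratio of 1.7, and their median background was 1.99 in C cells against 0.73 in P cells. Conversely, 1078 shared induced regions outside the members had at least 2 times the fragments in P cells, with a median background of 0.73 in C cells and 1.43 in P cells. A background of 2 input fragments in C cells was found at 62.5% (59.1 to 65.8) of the 824 and at 18.7% (16.9 to 20.5) of the 1856.

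**Figure D4:**
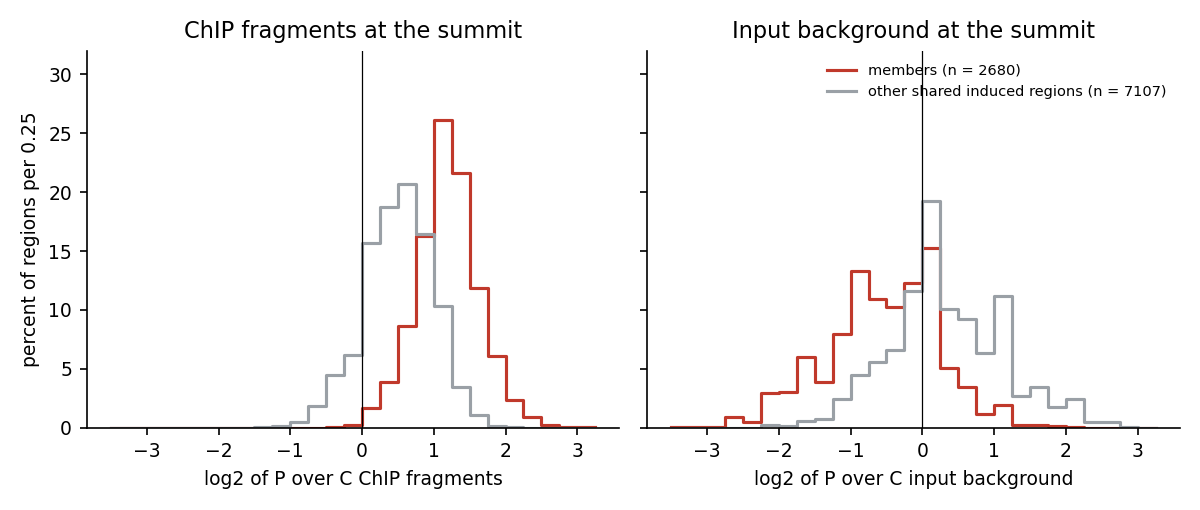
Log2 of the P over C value (horizontal) of the ChIP fragments at the summit (left) and of the input background there (right), as the percent of regions in each step of 0.25 (vertical), for members (red) and other shared induced regions (grey). The fragments of members lie to the right, with a median of 1.18 against 0.52, and their input background lies to the left, with a median of −0.49 against 0.19.

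Counting error was then set beside each member. The exact interval of the fragment ratio lay above 1 in 2074 members (77.4%) and in 21.9% of the other shared induced regions. It lay above the median ratio of all regions shared at 4 h, 1.63, in 446 members (16.6%, 15.2 to 18.1) and in 0.802% of the others. For the other 2234 members a ratio beyond the general excess of the P library was not detectable at this depth. The fragments are the ChIP term of the fold enrichment that chose the members, so these counts are largely fixed by the selection and are given as a description.

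Among the peaks of their own list, members ranked high in P cells and low in C cells, which the rule favours. Their median percentile by fold enrichment was 85.8 in the P list and 32.3 in the C list, against 59.0 and 56.2 for the other shared induced regions. Of the 1000 strongest regions of P cells, 291 were members, 175 other shared induced regions and 522 regions with a day −2 peak. Of the 1000 strongest regions of C cells, 25 were members, 421 other shared induced regions and 553 regions with a day −2 peak. Of the 100 strongest, 12 were members in P cells and none in C cells (0 of 100, exact upper bound 3.62%). Regions with a day −2 peak made up 76 and 78 of those 100. The C peak of a member had a median −log10 p of 13.8 and was under 10 in 595 members (22.2%), whereas no P peak of a member was under 10.

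Ordered by the fragments of C and P cells together, which takes the ChIP term of both cell types, the share of members rose from 10.4% (9.20 to 11.7) in the lowest of 4 equal classes of shared induced regions to 25.3%, 35.7% and 38.1% (36.2 to 40.05) in the classes above. The median log2 ratio rose with it, from 0.34 to 0.59, 0.76 and 0.78. By C fold enrichment alone the order was the opposite, from 46.5% in the lowest class to 13.0% in the highest, and by P fold enrichment it ran from 1.47% to 56.8%. All 3 orders use a term of the ratio itself. In the first, the P fragments add to the total and each region needs a called C peak, so low totals leave little room for a high ratio. These shares are a description of the members only.

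The C and P peaks of a member marked nearly the same point. The summits lay a median of 18 bp apart, against 16 bp in the other shared induced regions, and within 100 bp in 95.4% of members. Of the members, 2656 had exactly 1 peak in each 4 h list, 23 held more than 1 C peak and 1 held more than 1 P peak. The P peak was the wider in 92.9% of members, with a median of 315 bp against 227 bp for the C peak. In the other shared induced regions the medians were 263 bp and 236 bp. Width was read from the same peaks as the fold enrichment, so it was not independent of the rule.

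Position in the genome was not used by the rule. The share of members among shared induced regions ran from 22.1% (17.6 to 27.2) on chromosome 18 to 33.9% (29.1 to 38.9) on chromosome 16. Chromosomes 7, 12 and 10 followed chromosome 16, with 31.9%, 31.9% and 31.2%. These chromosomes were picked as the lowest and highest of 20, so the gap between them carries no test, and the intervals of most chromosomes took in the overall 27.4%. Regions with a day −2 peak gave a separate set of sites on the same chromosomes. A ratio of at least 2 was most frequent on the same chromosome there, with 47.8% of 67 regions on chromosome 16 and 47.0% of 66 on chromosome 7. When ChIP fragments were taken instead, the median log2 ratio of shared induced regions ran from 0.55 on chromosome 5 to 0.88 on chromosome 16. In regions with a day −2 peak the same chromosomes were lowest and highest, at 0.61 and 1.04. Across the 20 chromosomes these medians had a Pearson r of 0.85 and a Spearman rho of 0.79, both from the same pair of libraries. For the share of members and the share of regions with a day −2 peak past 2-fold, r was 0.59 and rho 0.36. The fragment ratio of a chromosome also went with its mean input background ratio, with an r of 0.62 and a rho of 0.74 over the 20 chromosomes. The part of DNA copy number in the chromosome values was not tested.

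**Figure D5:**
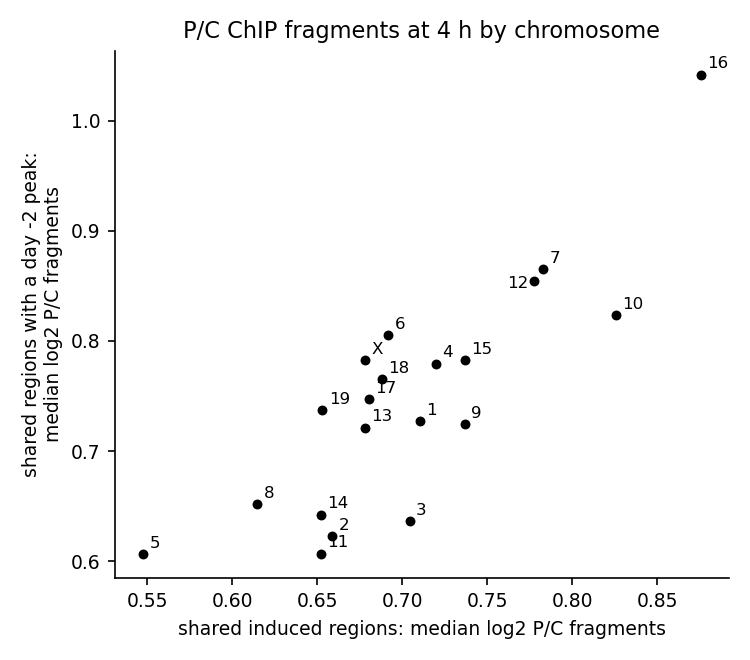
Median log2 of the P over C ChIP fragments at 4 h in shared induced regions (horizontal) and in shared regions with a day −2 peak (vertical), 1 point per chromosome. Chromosome 5 is lowest on the horizontal axis, at 0.55, and chromosome 16 is highest on both axes, at 0.88 and 1.04.

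On a finer scale, spans of 10 Mb with at least 30 shared induced regions numbered 162, and their share of members ran from 4.88% to 50% with a median of 27.2%. The interval lay above the overall share in 6 spans and below it in 5. The lowest was chr5:10000001-20000000, with 2 members of 41 regions. The highest were chr12:10000001-20000000, with 21 of 42, and chr16:70000001-80000000, with 15 of 30. The spans were picked from all 162 by their values, so their extremes carry no test. Members with a P input 3 or more times as high as the genome-wide level made up from 0% of 53 on chromosome X to 15.4% of 175 on chromosome 6. On chromosome 10 they were 16 of 167 (9.58%), and the highest single value, 23.9 times, was there. An input that high in the C or the P library was present at 37.4% (35.6 to 39.3) of all members. Among the other shared induced regions the share was 32.8% (31.7 to 33.9).

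The neighbours of the members were counted next, since clustered C/EBPβ sites can mark enhancers where many early factors gather. Another member lay within 12500 bp of 12.1% (10.8 to 13.3) of members, against 9.78% (9.10 to 10.5) of the other shared induced regions. These intervals did not overlap, but neighbouring members are counted from both sides, so the interval of members is too narrow. Within 5 kb the shares were 5.56% (4.72 to 6.50) and 5.08% (4.58 to 5.62), with overlapping intervals. Any other shared induced region lay within 12500 bp of 31.4% and 30.5%, so the density of shared induced regions differed by less than counting error. A site found in P cells at 4 h alone lay within 12500 bp of 40.1% (38.2 to 42.0) of members and 33.9% (32.8 to 35.0) of the others. A site of C cells at 4 h alone lay within that distance of 5.11% (4.31 to 6.01) and 6.08% (5.53 to 6.66). The median gap to the nearest site of P cells alone was 18.7 kb for members and 24.9 kb for the others. Sites of P or C cells alone were called from the same 4 h lists that chose the members. Shares near them, here and below, are therefore not independent of the rule and are a description only.

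Spacing was then compared among regions of like P strength. In the strongest of 4 equal classes by P fold enrichment, a site of P cells at 4 h alone lay within 12500 bp of 41.9% (39.3 to 44.5) of members and 40.2% (37.2 to 43.2) of the others. In the class below, the shares were 38.3% (35.1 to 41.5) and 33.9% (31.5 to 36.3), and in the next 38.8% (33.5 to 44.3) and 34.4% (32.4 to 36.5). In the weakest class, with 36 members, they were 30.6% and 30.7%. The share was thus higher in members in 3 of the 4 classes, and the intervals, wider in these smaller groups, overlapped in each. For a member neighbour, the classes gave, from the strongest to the weakest, 12.6%, 11.4%, 11.2% and 16.7% of members against 12.7%, 10.3%, 10.16% and 7.88% of the others. The weakest class held 36 members (6.37 to 32.8), and the intervals overlapped in each class.

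Sites bound before induction were compared in the same way. The median gap to the nearest day −2 site of P cells was 256 kb (233 to 277) for members and 295 kb (278 to 308) for the other shared induced regions, and these intervals did not overlap. The bounds of 277 and 278 kb were nearly equal. At short range the intervals of the shares overlapped. A day −2 site of P cells lay within 12500 bp of 6.94% (6.01 to 7.97) of members and 6.15% (5.60 to 6.73) of the other shared induced regions. By P strength, from the strongest class to the weakest, the shares were 6.19%, 7.57%, 7.88% and 11.1% of members against 6.81%, 6.44%, 6.19% and 5.64% of the others, with overlapping intervals in each class. For a day −2 site of C cells the shares were 3.47% (2.81 to 4.23) and 3.39% (2.98 to 3.84), and the median gaps 672 kb (620 to 735) and 677 kb (651 to 717). The lists give no value for a member at day −2, so binding under the threshold at that time was not measured.

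Whether neighbours shared the P excess was read from both sides. Regions with a day −2 peak whose nearest shared induced region within 12500 bp was a member had a ratio of at least 2 in 27.5% of 160 cases (20.7 to 35.1). The share was 27.9% of 380 (23.4 to 32.7) where that nearest region was not a member, and 33.2% of 630 (29.5 to 37.0) where none lay within 50 kb. Membership of a neighbour thus made no detectable difference to sites that were already bound. Among shared induced regions with a neighbour of the same kind less than 2500 bp away, 31.3% of 268 (25.8 to 37.3) were members when the nearest was a member and 23.5% of 792 (20.6 to 26.6) when it was not. The median log2 ratios there were 0.70 (0.59 to 0.83) and 0.53 (0.49 to 0.58). For neighbours 5000 to 12500 bp away, the shares were 36.0% of 367 (31.1 to 41.1) and 27.6% of 891 (24.7 to 30.7), with intervals that did not overlap, while the medians of 0.77 (0.68 to 0.83) and 0.62 (0.57 to 0.69) had overlapping ones. At 2500 to 5000 bp the order was the opposite, with 25.9% of 193 and 28.6% of 500. At 12500 to 50000 bp the shares were 27.1% and 27.3%, and at 50000 to 250000 bp 30.6% (27.5 to 33.8) and 26.4% (24.6 to 28.3). Of the 5 distance classes, the intervals of the shares lay apart at 5000 to 12500 bp alone and those of the medians at less than 2500 bp alone, so the class that stood apart changed with the measure. A pair of mutual nearest neighbours is counted from both sides, so these regions are not independent and the intervals are too narrow.

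Most members stood alone. With gaps of at most 12500 bp, 2357 members had no member neighbour, 292 stood in 146 pairs and 31 in 10 longer runs. The run with the most members, chr10:25092332-25115598, held 4 members in 23.3 kb together with 1 site of P cells alone. Its members had fold enrichments of 6.02, 13.04, 10.02 and 4.68 in C cells and of 23.5, 32.5, 24.96 and 15.5 in P cells. The fragments there were 23, 38, 19 and 13 in C cells and 46, 47, 49 and 30 in P cells, and the member with 38 and 47 had a ratio of 1.24 (0.79 to 1.95). The run chr2:79909882-79933247 held 3 members and 1 site of P cells alone, with C values of 6.27, 4.35 and 6.69 and P values of 15.0, 23.1 and 14.3. The run chr17:26708415-26729808 held 3 members, with C values of 6.69, 6.92 and 14.04 and P values of 19.4, 15.0 and 41.7. In each of these 3 runs every shared induced region was a member, and the run on chromosome 17 held no region of another kind.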

How the data were processed

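C/EBPβ ChIP-seq lists of 4 conditions were used, 1 ChIP library against input in each. The authors aligned Ion Torrent reads to mm9 with Bowtie 0.12.8, kept unique alignments, removed duplicates, down-sampled mapped reads to equal numbers with SAMtools and called peaks with MACS2 (Bowtie 0.12.8, SAMtools 1.3.1 and MACS2 2.0.10.20131028 in the submitters' processing notes) at a −log10 p threshold of 5. The deposited columns used were peak start, end and summit, the fold enrichment (a ratio of ChIP to local input), the −log10 p and the −log10 q. Down-sampling evens depth between C and P libraries, while a difference in immunoprecipitation efficiency would still enter the ratio.

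The members and lists were chosen with earlier results of these data known. Peaks were merged in pandas 2.3.3 and numpy 2.4.6 (Python 3.11.15). The fragments at a summit and the input background were solved from both deposited values, fold enrichment and −log10 p (a Poisson tail, scipy 1.17.1), with whole fragments found for 100% of peaks within 0.01 of the deposited −log10 p. The recovery was tested on simulated data. Depth was derived for a genome of 2.7e+09 bp, which MACS2 assumes unless told otherwise. Shares have exact (Clopper-Pearson) and medians exact order-statistic 95% intervals. Figures were drawn with matplotlib 3.10.9. Regions were named by rule, as the 10 members highest in P cells, the 5 of highest ratio, the 5 highest in C cells, the 3 on each side of the limit and the 3 runs with the most members (longest first among equals). Alternatives were a stricter peak threshold, other measures of strength, other limits, stricter overlap and other distances. Genes, motifs and sequences were not analysed here, since the annotation at hand was of a build other than mm9.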

Additional observations from a re-analysis of the deposited data

How the results depend on the processing

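The lack of replicates limits every value, and the input background of a member rested on a few reads. Of 32 values under other settings, 22 moved and 10 did not, being inside the reported interval or, for the number of members, less than 1.5 times away. The number of members was 668 when the P/C ratio was first divided by its median over all shared regions, with 691 regions then at least 2 times higher in C cells. That scaling centres the ratios, so near-equal numbers on both sides follow from its construction. It was 4986 at a limit of 1.5 times and 729 at 3 times. It was 1677 of 6454 regions (26.0%) when the input background had to be under 3 times the genome's in both cell types, a setting chosen after seeing the data. It stayed between 2086 (−log10 p of at least 10) and 3884 (strength read as −log10 p) otherwise. With the most fragments of a region in place of fold enrichment it was 2932, of which 1855 were members under the rule. The median log2 ratio of members was 1.67 with −log10 p, 1.18 with fragments and 1.28 with a low background, and that of all shared induced regions 0.79, 0.69 and 0.64. Shares near other sites follow the distance by construction. Within 5 and 50 kb, another member was near 5.56% and 29.4% of members and 5.08% and 26.1% of the other shared induced regions. A day −2 site of P cells was near 3.99% and 18.9% of members and 3.08% and 17.6% of the others. A site of P cells at 4 h alone, for which these distances were chosen after seeing the data, was near 21.5% and 74.6% of members and 18.4% and 67.8% of the others. No paired analysis was possible because the result comes from no test and each condition has 1 library. The planned windows around summits for motifs and distances to gene starts were not run, since they need a genome and annotation of the build mm9.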
